A study of Mus musculus with 6 samples.

Results

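The 48 genes examined here encode the scaffolds of the postsynaptic density and the adhesion molecules that hold the synapse together. They were taken by symbol from their known roles, with earlier results of these data known. All 48 were among the 54429 genes listed in every library, and all 48 were among the 20409 genes with enough counts to be tested. By role they comprise 4 MAGUK scaffolds, 4 SAPAP scaffolds, 5 Shank and Homer scaffolds, 4 subunits of the kinase CaMKII, 3 auxiliary subunits of AMPA receptors, 3 PDZ partners of AMPA receptors, 5 neurexins and neuroligins, 7 LRRTM and NGL adhesion molecules, 5 SLITRK adhesion molecules, gephyrin, and 7 regulators of small GTPases and spine actin.

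Bulk tissue of the prefrontal cortex (PFC) gave 6 RNA libraries, 2 per group. The WT group held non-transgenic mice of a C57BL/6 x C3H background given vehicle, and P301S Tau mice carried the PS19 transgene, a mutant human tau driven by the mouse prion protein promoter, and were also given vehicle. UNC0642-treated Tau mice carried the same transgene and received UNC0642, a selective inhibitor of the H3K9 methyltransferases EHMT1 and EHMT2, at 1 mg/kg by intraperitoneal injection daily for 3 days. All animals were 6 months old, and the study asked whether transcription in the PFC differs in P301S Tau mice and whether it moves after the inhibitor.

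At an excitatory synapse, MAGUK proteins such as PSD-95 bind glutamate receptors, and SAPAP, Shank and Homer proteins stack beneath them and link them to the actin of the spine. Across the cleft, presynaptic neurexins bind postsynaptic neuroligins and LRRTM proteins, while NGL and SLITRK proteins bind other presynaptic partners. Gephyrin and neuroligin 2 serve the same tasks at inhibitory synapses, and CaMKII is the most studied kinase of the postsynaptic density.

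The start regions of members called lower below are shown first, because most of these members have GC-rich transcripts and the upstream letters show how GC-rich the start of such a gene is. RefSeq promoter windows on GRCm38 were found for 37 of the 48 members, 57 windows in all, and the 250 bases before each start were read. Among the 6 members called lower in any comparison, windows were found for Nlgn2, Iqsec2 and Grip2. The windows of Nlgn2 and Iqsec2 that end directly before the annotated start of the gene are shown. Capitals mark the GC box, GGGCGG on the strand shown. Shank1, Nlgn3 and Nrxn2 are named only.
Nlgn2, chr11:69837785-69838034, minus strand: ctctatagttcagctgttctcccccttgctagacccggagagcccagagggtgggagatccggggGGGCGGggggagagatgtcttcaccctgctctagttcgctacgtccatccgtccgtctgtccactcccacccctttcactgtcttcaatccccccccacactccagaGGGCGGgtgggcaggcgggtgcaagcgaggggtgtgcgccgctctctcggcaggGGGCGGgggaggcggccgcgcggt
Iqsec2, chrX:152144018-152144267, plus strand: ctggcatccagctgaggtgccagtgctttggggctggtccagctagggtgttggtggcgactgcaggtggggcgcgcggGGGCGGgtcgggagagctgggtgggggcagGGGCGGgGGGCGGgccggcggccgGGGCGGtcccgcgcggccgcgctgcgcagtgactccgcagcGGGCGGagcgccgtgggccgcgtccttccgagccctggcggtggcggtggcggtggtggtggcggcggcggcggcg
The Nlgn2 window had a GC content of 67.6%, with 18 CpG pairs and 3 GC boxes, and the Iqsec2 window had a GC content of 80.0%, with 34 CpG pairs and 5 GC boxes. A window further inside Iqsec2 had a GC content of 50% with 0 CpG pairs and 0 GC boxes, and the Grip2 window, also inside its gene, 62.0% with 12 CpG pairs and 0 GC boxes. On either strand, GGGCGG was found in 42.1% of the member windows and in 32.7% of all 32851 windows. The cAMP response element TGACGTCA was in 1.75% and 1.55%. Members without a call also had GC boxes, among them 8 in a Homer2 window, 5 in Baiap2, 4 in Shank3 and 3 in Camk2b. The median GC content was 56.8% over member windows and 52.4% over all windows. These matches describe letters and not bound sites.

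The libraries held 17005664 to 28972176 counts, and the members had 38 to 35136 counts per library, with at least 100 in every library for 47 of the 48. The typical variation between replicates was 12.3% (biological coefficient of variation). Xist was at 191 to 317 CPM (counts scaled to library size) in WT replicate 2 and both Tau libraries and below 0.2 CPM in WT replicate 1 and both UNC0642 libraries, and 4 Y-linked genes had the opposite pattern. UNC0642 treatment therefore coincided with a difference in sex-linked expression among the Tau libraries, and the 2 cannot be told apart there. WT replicates 1 and 2 differed in this pattern, so each comparison with WT was unbalanced in it as well. Prnp was at 1652 CPM in the library labelled WT replicate 1, within the 1470 to 1694 CPM of the 4 Tau and UNC0642 libraries, and at 873 CPM in WT replicate 2. Mapt, the mouse tau gene, was at 576 CPM in WT replicate 1, within the 571 to 614 CPM of those 4, and at 449 CPM in WT replicate 2. Whether the library labelled WT replicate 1 carries the transgene was not tested. Every comparison with WT rests on that label. Summed markers of oligodendrocytes reached 5520 CPM in Tau replicate 2, against 1460 to 2960 CPM in the other libraries, and summed markers of striatal projection neurons 370 CPM against 164 to 196 CPM. In bulk tissue, fewer cells of a type and less RNA per cell cannot be told apart.

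Most members were strongly expressed. Per kb of exon, Camk2a was the highest at 147 CPM, above 99.1% of the genes tested, followed by Agap2 at 92.0, Camk2b at 79.7, Cnih2 at 56.7 and Lrrc4b at 48.6 CPM per kb. The range over the 6 libraries was 128 to 168 CPM per kb for Camk2a and 79.2 to 103 for Agap2, so these leading members did not overlap, whereas the ranges of Agap2 and Camk2b, at 76.0 to 84.1 CPM per kb, did. At the other end, Grip2 was at 1.96, Pick1 at 1.74 and Homer3 at 0.806 CPM per kb. Homer3, named after its values were seen, was the member with the fewest counts.

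**Figure D1:**
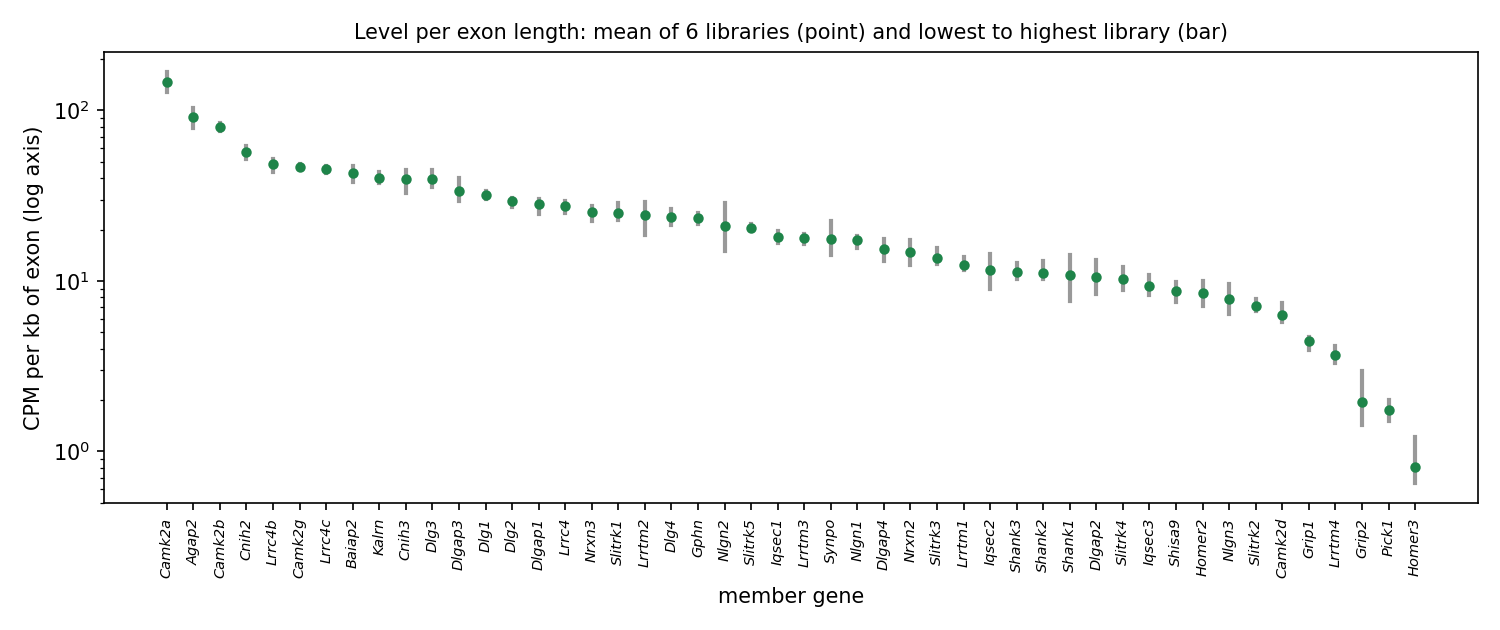
Level of each of the 48 members in CPM per kb of exon on a log axis, ordered from highest to lowest. Points are means of the 6 libraries and bars run from the lowest to the highest library. Camk2a leads at 147 CPM per kb and Homer3 closes the order at 0.806.

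In P301S Tau against WT mice, 3 of the 48 members were called, meaning that the unadjusted p-value was below 0.05 and the level differed by 1.2-fold or more. Lrrtm2 and Synpo were higher and Shank1 was lower. The rule called 9.81% of all genes tested (3.72% higher and 6.1% lower), against 6.25% of the members. After Benjamini-Hochberg adjustment over all genes in the edgeR test, 0 members and 0.157% of all genes stayed under 0.05, and the smallest adjusted value of a member was 0.0817 for Lrrtm2. Without adjustment 3 members and 12.4% of all genes were under 0.05, and DESeq2 and limma-voom also called 3. With library size alone in place of TMM scaling, 1 member was called higher and 3 lower, where the main scaling gave 2 and 1. Without Tau replicate 1, 9 members were called, 1 higher and 8 lower, the additions being Dlgap2, Shank3, Cnih3, Nrxn2, Nlgn2, Iqsec2 and Agap2. The share of all genes called was not computed for fits that leave out 1 library. Both Tau libraries lay outside the range of both WT libraries for 9 members, 6 higher and 3 lower, and this was so for 43.2% of all genes tested (21.9% higher and 21.4% lower). The median log2 fold change of the members was -0.01, beside 0 (to 2 decimals) for all genes tested and 0.07 for the 6452 genes with a mean of at least 30 CPM. The 95% interval lay within a 1.5-fold change in either direction for 42 members and within a 1.2-fold change for 13.

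Between UNC0642-treated and untreated Tau mice, 3 members were called, Shank1, Nlgn2 and Nlgn3, all lower after UNC0642. The rule called 7.69% of all genes tested (3.73% higher and 3.95% lower), against 6.25% of the members. After adjustment in the same edgeR test, 0 members and 0.0196% of all genes stayed under 0.05, and the smallest adjusted value of a member was 0.429 for Nlgn3. Without adjustment 4 members, Lrrc4b being the addition, and 8.86% of all genes were under 0.05. DESeq2 and limma-voom each called 3, limma-voom the same 3 and DESeq2 with Synpo in place of Nlgn2. The log2 fold change was below 0 for 38 members and above 0 for 10, with a median of -0.09. Over all genes tested it was below 0 for 10284 and above 0 for 10125, with a median of 0 (to 2 decimals), and among the genes with a mean of at least 30 CPM it was below 0 for 3661 and above 0 for 2791, with a median of -0.02. With a term for sex-linked expression in the model, all 3 of these calls were lost. The 3 members called were Dlgap3, Grip2 and Slitrk4, 2 higher and 1 lower, beside 8.05% of all genes tested. The median of the members was then 0.04. That term could be estimated only from the difference between the 2 WT libraries, because the Tau and UNC0642 libraries each carried 1 pattern. It therefore takes up every other difference between WT replicates 1 and 2 as well, such as Prnp at 1652 and 873 CPM and Mapt at 576 and 449 CPM. Its values cannot be assigned to sex-linked expression alone. Groups did not overlap for 16 members, 1 higher and 15 lower, and 41.3% of all genes tested did not overlap (20.4% higher and 20.9% lower). The 95% interval lay within a 1.5-fold change for 44 members.

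UNC0642-treated Tau mice differed from WT mice in 7 members by the same rule, Lrrtm2 higher and Shank1, Nlgn2, Nrxn2, Iqsec2, Grip2 and Nlgn3 lower. The rule called 9.47% of all genes tested, with 3.77% higher and 5.69% lower, against 14.6% of the members, with 2.08% higher and 12.5% lower. After adjustment 1 member, Shank1, and 0.216% of all genes stayed under 0.05 in the edgeR test, and without adjustment 10 members (20.8%) and 12.1% of all genes did. Groups did not overlap for 25 members, 6 higher and 19 lower, beside 44.4% of all genes tested, of which 22.1% were higher and 22.3% lower. The median of the members was -0.09, that of all genes tested -0.01 and that of genes with a mean of at least 30 CPM 0.05. Without WT replicate 1 the count of called members was 11 and the median -0.18, and without WT replicate 2 the median was 0.01. Without UNC0642 replicate 2, 4 members were called. Each pair of these 3 comparisons shares a group of libraries, so their values are set side by side and not counted as separate evidence.

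**Figure D2:**
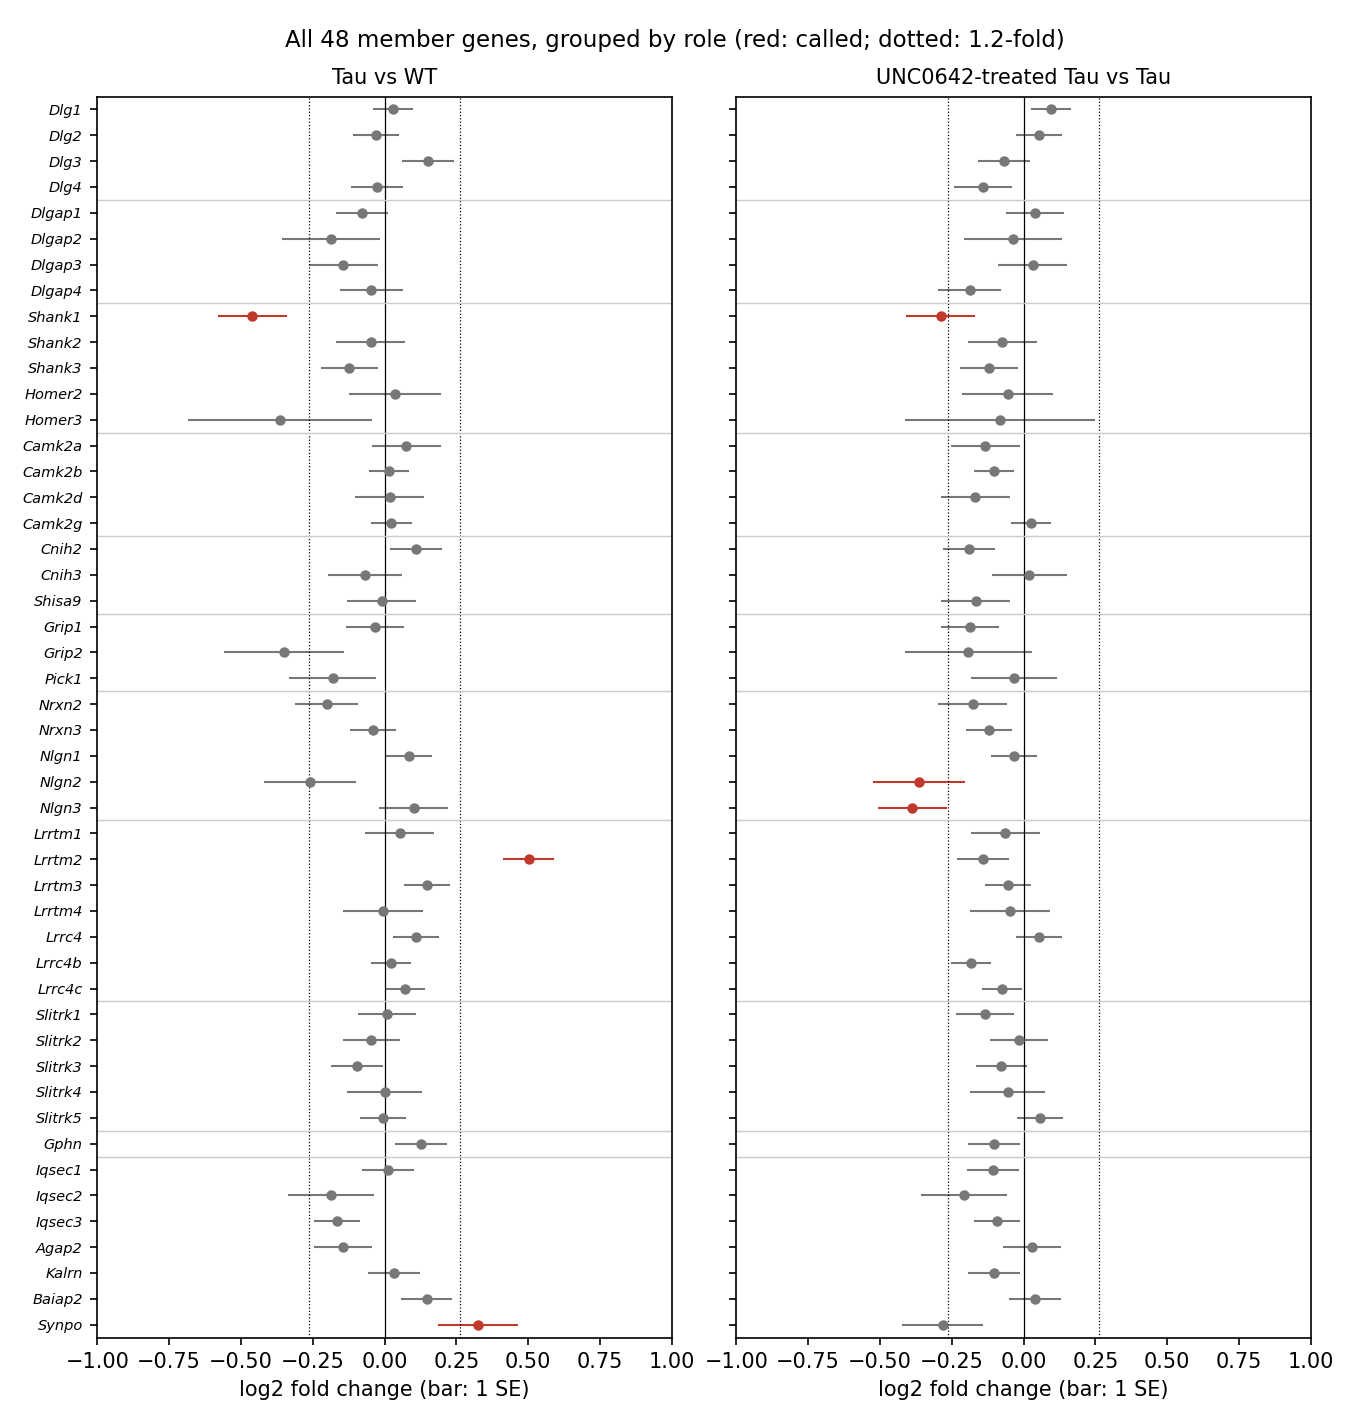
Log2 fold change of each member in P301S Tau relative to WT mice (left) and in UNC0642-treated relative to untreated Tau mice (right), with bars of 1 standard error. Lines separate the roles, dotted lines mark a 1.2-fold change, and red marks the 3 members called on each side.

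The Shank and Homer proteins are the deep layer of the postsynaptic density, and Shank1 was called lower in each of the 3 comparisons. Shank1 (chr7:44310253-44360572, plus strand of GRCm38) is a master scaffold that binds SAPAP proteins and Homer. It was at 149 and 149 CPM in the WT libraries, 121 and 94.8 CPM in the Tau libraries, and 96.6 and 80.3 CPM in the UNC0642 libraries. Both Tau libraries were below both WT libraries, and the UNC0642 libraries were the lowest group, with UNC0642 replicate 1 just above Tau replicate 2. Between Tau and WT mice the log2 fold change was -0.46 (standard error 0.12, 95% interval -0.73 to -0.19, adjusted p = 0.234), a level 0.727 of that in WT. After UNC0642 it was -0.29 relative to untreated Tau mice (standard error 0.12, interval -0.56 to -0.02, adjusted p = 0.537). Relative to WT mice it was -0.75 (standard error 0.12, interval -1.02 to -0.48, adjusted p = 0.048). The calls against WT held under all 17 alternative settings, with log2 fold changes of -0.65 to -0.30 and -0.89 to -0.62. The call after UNC0642 was lost in 5. These were the term for sex-linked expression, where the value stayed at -0.29, library size alone, offsets for GC content, without Tau replicate 1, where it was -0.10, and without UNC0642 replicate 2, where it was -0.16.

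Shank2 and Shank3, the other Shank scaffolds, were measured at a like depth and had no call in the main fit of these comparisons. Shank3, the highest of this class per kb of exon at 11.3 CPM, beside 11.2 for Shank2 and 10.9 for Shank1, was at 109 and 117 CPM in WT, 114 and 94.1 CPM in Tau and 93.4 and 97.9 CPM in UNC0642-treated Tau mice. Relative to WT, its UNC0642 libraries were both lower, with a log2 fold change of -0.24 (adjusted p = 0.366), short of a 1.2-fold change. With library size alone, without WT replicate 1, and with WT replicate 1 and Tau replicate 2 both left out, Shank3 was called lower. Without WT replicate 1, with or without Tau replicate 2, Shank2 was called lower in that comparison as well. The log2 fold changes of Shank2, Homer2 and Homer3 ran from -0.36 to 0.04 in Tau against WT mice and from -0.08 to -0.06 after UNC0642, with no call. Homer3 had the widest standard error, 0.32 in the first comparison.

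**Figure D3:**
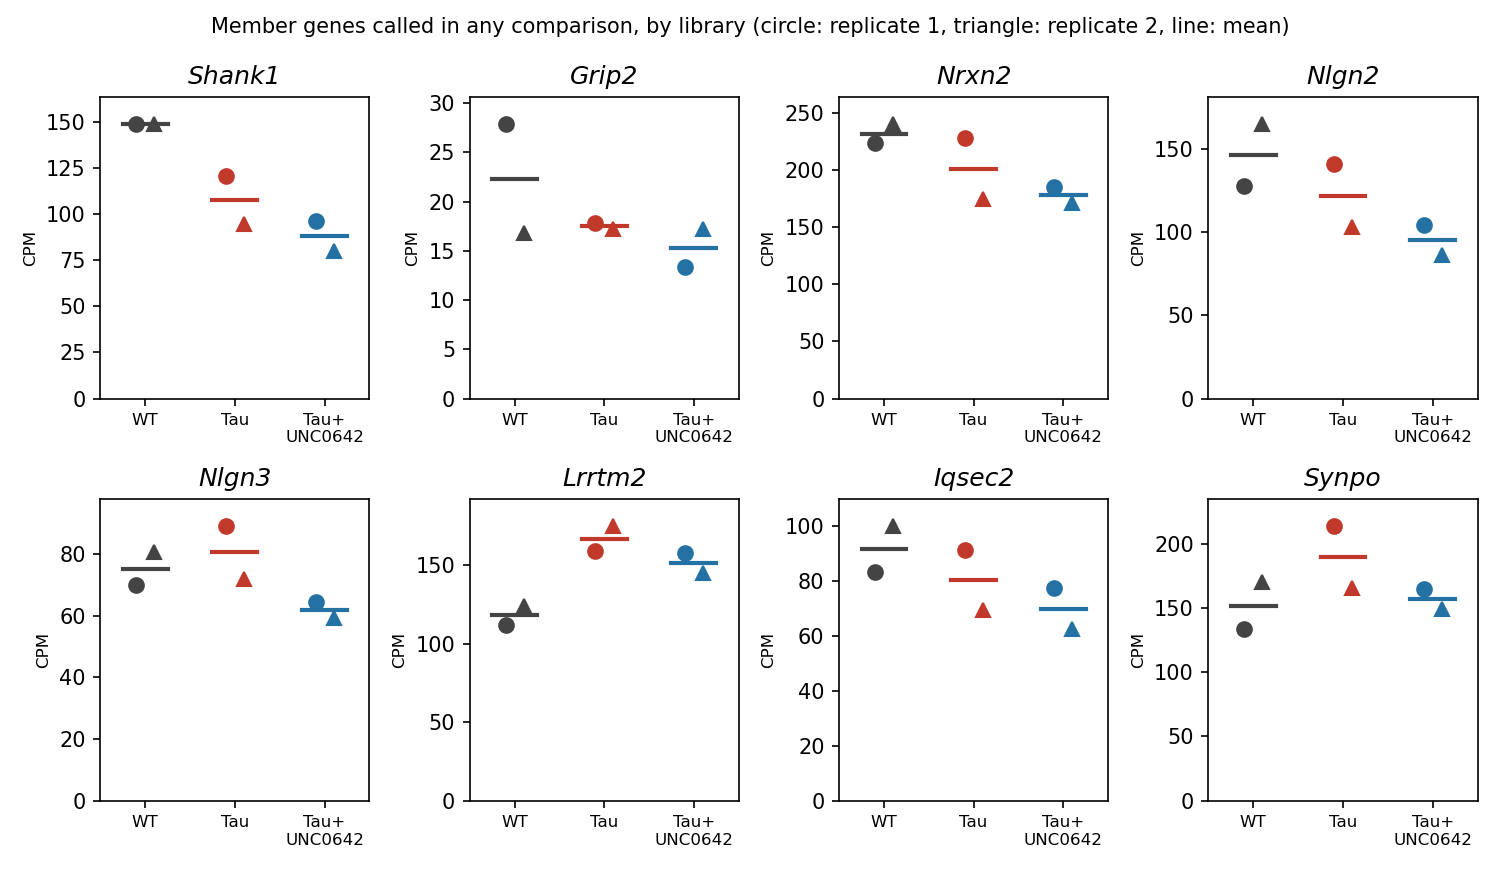
CPM of the 8 members called in any comparison, 1 panel per gene with the axis starting at 0. Circles are replicate 1, triangles replicate 2 and lines group means. Shank1 is at 149 CPM in both WT libraries and at 80.3 to 121 CPM in the other 4, whereas Lrrtm2 is at 112 and 124 CPM in WT and at 145 to 175 CPM in the others.

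The MAGUK proteins SAP97 (Dlg1), PSD-93 (Dlg2), SAP102 (Dlg3) and PSD-95 (Dlg4) tether NMDA and AMPA receptors. No MAGUK gene was called in any comparison, and their log2 fold changes stayed between -0.03 and 0.15 in Tau against WT mice and between -0.14 and 0.10 after UNC0642. Dlg3, X-linked and the highest MAGUK per kb of exon, was at 208 and 230 CPM in WT, 260 and 226 CPM in Tau and 237 and 227 CPM in UNC0642-treated Tau mice. Dlg1 was at 323 and 335 CPM in WT, 331 and 341 CPM in Tau and 357 and 361 CPM in UNC0642-treated Tau mice, the highest group in every library, with a log2 fold change of 0.10 relative to untreated Tau mice (95% interval -0.06 to 0.25, adjusted p = 0.73). Dlg2 changed by 0.05 in the same comparison, with an interval of -0.12 to 0.23. All 4 intervals lay within a 1.5-fold change in each of the comparisons.

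SAPAP proteins, encoded by Dlgap1 to Dlgap4, connect the MAGUK layer to Shank. All 4 had a log2 fold change below 0 in Tau against WT mice, from -0.19 to -0.05, and none was called. After UNC0642 the range was -0.19 to 0.04. Dlgap3, the highest of the class per kb of exon, was at 142 and 181 CPM in WT, 159 and 134 CPM in Tau, and 153 and 147 CPM in UNC0642-treated Tau mice. Its groups overlapped throughout, and its log2 fold change after UNC0642 was 0.03 (95% interval -0.23 to 0.30).

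CaMKII phosphorylates AMPA receptors and their partners during potentiation. Camk2a, the most abundant member, was at 955 and 1220 CPM in WT, 1260 and 1040 CPM in Tau and 1070 and 1020 CPM in UNC0642-treated Tau mice, so the 2 replicates of WT and of Tau differed by more than the groups. Its log2 fold changes were 0.08 (95% interval -0.19 to 0.35) and -0.13 (interval -0.40 to 0.14). None of the 4 subunits was called. Over the class, log2 fold changes ran from 0.02 to 0.08 in Tau against WT mice, from -0.17 to 0.03 after UNC0642, and from -0.15 to 0.05 between UNC0642-treated Tau and WT mice.

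Cornichons (Cnih2, Cnih3) and Shisa9 ride on AMPA receptors and set their gating and trafficking. Cnih2 was at 71.1 and 83.0 CPM in WT, 84.9 and 81.2 CPM in Tau and 74.5 and 71.4 CPM in UNC0642-treated Tau mice. Both UNC0642 libraries were below both Tau libraries, with a log2 fold change of -0.19 (standard error 0.09, adjusted p = 0.598), under the 1.2-fold limit. Cnih3 and Shisa9 had log2 fold changes of 0.02 and -0.17 after UNC0642, and none of the 3 was called in any comparison.

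GRIP1, GRIP2 and PICK1 are PDZ proteins that bind the tails of AMPA receptor subunits and govern their anchoring and removal. Grip2 (chr6:91761509-91827250, minus strand) was at 27.9 and 16.8 CPM in WT, 17.8 and 17.2 CPM in Tau and 13.4 and 17.2 CPM in UNC0642-treated Tau mice. WT replicate 1 stood apart from all other libraries, WT replicate 2 lay with the Tau libraries, and the WT and UNC0642 groups overlapped. Its call in UNC0642-treated Tau relative to WT mice, with a log2 fold change of -0.54 (standard error 0.22, adjusted p = 0.354), was lost without WT replicate 1 and in 4 other settings, with a range of -0.86 to -0.13. Grip1, the highest of the class per kb of exon at 4.44 CPM, was at 38.0 and 37.8 CPM in WT, 37.9 and 36.1 CPM in Tau and 31.6 and 33.4 CPM in UNC0642-treated Tau mice. Both UNC0642 libraries of Grip1 were below the other 4, and the log2 fold changes were -0.19 relative to Tau (adjusted p = 0.614) and -0.22 relative to WT mice (adjusted p = 0.406), both short of a 1.2-fold change.

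Neuroligins are postsynaptic receptors of the neurexins, and Nlgn2 and Nlgn3 were called lower after UNC0642. The rule called 6.25% of the members there, beside 7.69% of all genes tested. Nlgn2 (chr11:69823122-69837784, minus strand), the neuroligin of inhibitory synapses, was at 128 and 165 CPM in WT, 141 and 103 CPM in Tau, and 104 and 86.4 CPM in UNC0642-treated Tau mice. Both UNC0642 libraries were below both WT libraries and close to or below Tau replicate 2. The log2 fold change after UNC0642 was -0.36 relative to Tau (standard error 0.16, 95% interval -0.72 to -0.01, adjusted p = 0.549) and -0.62 relative to WT mice (standard error 0.16, interval -0.98 to -0.27, adjusted p = 0.179). The call against WT held under all 17 settings. The call against Tau was lost in 6. The log2 fold change was -0.12 without Tau replicate 1, -0.24 without UNC0642 replicate 2 and near 0 with the term for sex-linked expression. In Tau against WT mice the value was -0.26 (adjusted p = 0.529). There it was called lower without Tau replicate 1, at -0.51, and without WT replicate 1, at -0.43. It was also called lower with library size alone (-0.33), without a filter and with the term for sex-linked expression.

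Nlgn3 (chrX:101299168-101325963, plus strand), found at excitatory and inhibitory synapses, was at 69.8 and 80.6 CPM in WT, 89.1 and 72.0 CPM in Tau and 64.5 and 59.1 CPM in UNC0642-treated Tau mice. Both UNC0642 libraries were the lowest of the 6. It changed by 0.10 on the log2 scale in Tau against WT mice, -0.39 after UNC0642 relative to Tau (standard error 0.12, 95% interval -0.65 to -0.13, adjusted p = 0.429) and -0.29 relative to WT mice (adjusted p = 0.373). Relative to Tau mice the call was lost without Tau replicate 1, without UNC0642 replicate 2 and with the term for sex-linked expression, where it was -0.18. Relative to WT mice it was lost in 4 settings, among them without WT replicate 2, where it was also -0.18, and without either UNC0642 library. Of the exonic bases of Nlgn3, 41.2% are shared on the same strand with Gm21986, which had 2 to 8 counts per library, and how the counting treated shared bases was not given in the sources used here.

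Nrxn2 (chr19:6418731-6544169, plus strand), a presynaptic partner of the neuroligins, was at 223 and 240 CPM in WT, 228 and 174 CPM in Tau and 185 and 171 CPM in UNC0642-treated Tau mice. Tau replicate 1 lay with WT and Tau replicate 2 with the UNC0642 libraries. Its log2 fold change was -0.38 in UNC0642-treated Tau relative to WT mice (standard error 0.12, 95% interval -0.63 to -0.12, adjusted p = 0.247), a call lost without UNC0642 replicate 2 and with offsets for GC content. Between Tau and WT mice it was -0.20 (adjusted p = 0.5) and after UNC0642 -0.18 (adjusted p = 0.692). Nrxn3, the highest of the class per kb of exon at 25.4 CPM, was at 325 and 345 CPM in WT, 336 and 316 CPM in Tau and 317 and 283 CPM in UNC0642-treated Tau mice, with log2 fold changes of -0.04, -0.12 and -0.16 and no call. Nlgn1, the neuroligin of excitatory synapses, kept within log2 fold changes of -0.03 to 0.08.

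LRRTM proteins are postsynaptic ligands of neurexins at excitatory synapses, and Lrrtm2 had the highest log2 fold change of the 48 members in both comparisons with WT. Lrrtm2 (chr18:35209003-35215024, minus strand) was at 112 and 124 CPM in WT, 159 and 175 CPM in Tau and 158 and 145 CPM in UNC0642-treated Tau mice. All 4 Tau and UNC0642 libraries were above both libraries labelled WT, and both UNC0642 libraries were below both Tau libraries. Between Tau and WT mice the log2 fold change was 0.50 (standard error 0.09, 95% interval 0.30 to 0.70, adjusted p = 0.0817), or 1.42-fold. It was 0.36 in UNC0642-treated Tau relative to WT mice (interval 0.16 to 0.56, adjusted p = 0.165) and -0.14 after UNC0642 relative to Tau (interval -0.34 to 0.06, adjusted p = 0.675). Both calls against WT held under all 17 settings, with values from 0.34 to 0.58 and from 0.27 to 0.44.

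Among the other LRRTM genes, Lrrtm3 was at 69.7 and 74.0 CPM in WT, 78.8 and 80.5 CPM in Tau and 77.4 and 76.1 CPM in UNC0642-treated Tau mice. Its groups did not overlap between Tau and WT, but the log2 fold change of 0.15 (adjusted p = 0.483) was not called. The NGL proteins, encoded by Lrrc4, Lrrc4b and Lrrc4c, bind netrin-G and receptor phosphatases across the cleft. Lrrc4b, the highest of this class per kb of exon, was at 147 and 146 CPM in WT, 152 and 146 CPM in Tau and 127 and 135 CPM in UNC0642-treated Tau mice. Both UNC0642 libraries were below the other 4, and the log2 fold change was -0.18 relative to Tau (standard error 0.07, adjusted p = 0.525), short of a 1.2-fold change. Lrrc4 was at 99.5 and 107 CPM in WT, 116 and 106 CPM in Tau and 113 and 117 CPM in UNC0642-treated Tau mice, with log2 fold changes of 0.11, 0.05 and 0.16 and no call. The class as a whole ran from -0.18 to 0.05 after UNC0642, and no member of it was called there.

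SLITRK proteins bind receptor phosphatases and promote synapse formation, and none of the 5 was called in any comparison. Their log2 fold changes ran from -0.10 to 0.01 in Tau against WT mice and from -0.13 to 0.06 after UNC0642. Slitrk1, the highest per kb of exon, was at 125 and 153 CPM in WT, 146 and 133 CPM in Tau and 131 and 123 CPM in UNC0642-treated Tau mice. The X-linked Slitrk2 was at 53.7 to 63.7 CPM and the X-linked Slitrk4 at 77.6 to 104 CPM over the 6 libraries, and in both the lowest and the highest library were WT replicates 1 and 2. Slitrk4 had a log2 fold change of -0.06 after UNC0642 (95% interval -0.34 to 0.23), and 0.37 with the term for sex-linked expression. Slitrk5 was at 104 and 109 CPM in Tau and at 108 and 114 CPM in UNC0642-treated Tau mice, with a log2 fold change of 0.06.

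Gephyrin (Gphn), which clusters GABA-A and glycine receptors, was at 89.2 and 80.8 CPM in WT, 92.4 and 93.3 CPM in Tau and 89.5 and 83.4 CPM in UNC0642-treated Tau mice. The Tau libraries were the highest group, yet the log2 fold changes of 0.13 and -0.10 (standard errors 0.09) were not called. Gphn and Nlgn2, which share the inhibitory synapse, are set side by side here without a test of their difference.

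The last group shapes the actin of the spine and the small GTPases that move receptors. Synpo (chr18:60593973-60660142, minus strand), an actin-binding protein of the spine apparatus, was at 134 and 170 CPM in WT, 214 and 166 CPM in Tau and 165 and 149 CPM in UNC0642-treated Tau mice. Tau replicate 1 was the highest library, while Tau replicate 2 lay inside the WT range. The log2 fold change of 0.33 in Tau against WT mice (standard error 0.14, 95% interval 0.03 to 0.63, adjusted p = 0.376) lost its call in 8 of the 17 settings and was 0.13 without Tau replicate 1 and 0.16 without WT replicate 1. After UNC0642 it was -0.28 relative to Tau (adjusted p = 0.589), with both UNC0642 libraries below both Tau libraries, and 0.04 relative to WT mice. The value relative to Tau was called lower with DESeq2, without a filter and with the compared groups alone. It was also called lower with WT replicate 1, WT replicate 2 or Tau replicate 2 left out. The same was so with WT replicate 1 and Tau replicate 2 both left out.

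The IQSEC proteins activate the GTPase ARF6 and so guide receptor traffic at excitatory (Iqsec1, Iqsec2) and inhibitory (Iqsec3) synapses. Iqsec2 (chrX:152144268-152225236, plus strand) was at 83.1 and 100 CPM in WT, 91.3 and 69.4 CPM in Tau and 77.3 and 62.3 CPM after UNC0642. Its log2 fold change was -0.39 in UNC0642-treated Tau relative to WT mice (standard error 0.15, 95% interval -0.72 to -0.07, adjusted p = 0.33), a call lost without WT replicate 2, without UNC0642 replicate 2 and with the term for sex-linked expression. Iqsec3 was at 147 and 132 CPM in WT, 128 and 121 CPM in Tau and 121 and 113 CPM in UNC0642-treated Tau mice. All 4 Tau and UNC0642 libraries were below both libraries labelled WT, and Tau replicate 2 and UNC0642 replicate 1 were level after rounding. Its log2 fold changes were -0.17 (adjusted p = 0.447), -0.09 (adjusted p = 0.795) and -0.26 (adjusted p = 0.273), the last just short of a 1.2-fold change.

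Agap2, a GTPase-activating protein of ARF1 and the highest of this group per kb of exon, was at 551 and 609 CPM in WT, 579 and 471 CPM in Tau and 535 and 535 CPM after UNC0642. Its log2 fold changes were -0.14, 0.03 and -0.12, none called. Baiap2 (IRSp53), which bends membranes and binds actin regulators, was at 191 and 208 CPM in WT, 233 and 209 CPM in Tau and 217 and 237 CPM in UNC0642-treated Tau mice. All 4 Tau and UNC0642 libraries were above both libraries labelled WT, and the log2 fold changes relative to WT were 0.15 (adjusted p = 0.512) and 0.19 (adjusted p = 0.423), not called. Iqsec1 and Kalrn were not called either, with values from -0.11 to 0.03 over all comparisons.

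Other genes of the same synaptic pathway were given by a list of 77 further scaffolds, AMPA receptor auxiliary subunits and adhesion genes, all tested. In Tau relative to WT mice 4 were called higher and 6 lower, beside 9.81% of all genes tested in either direction. After UNC0642 4 were called higher and 4 lower, beside 7.69%. In UNC0642-treated Tau relative to WT mice 4 were called higher and 9 lower, beside 9.47%. The list was not tested as a set. Homer1, the member of the Homer family with an activity-induced short form, was at 360 and 377 CPM in WT, 479 and 483 CPM in Tau and 803 and 868 CPM in UNC0642-treated Tau mice. Groups did not overlap, with log2 fold changes of 0.38 (adjusted p = 0.108) in Tau against WT mice and of 0.80 after UNC0642 (standard error 0.07, adjusted p = 0.00573). Counts per gene do not separate its long and short forms. Tanc1, a scaffold that binds PSD-95, was at 25.9 and 26.7 CPM in WT, 36.8 and 35.6 CPM in Tau and 26.9 and 31.8 CPM after UNC0642, with log2 fold changes of 0.46 (adjusted p = 0.207) and -0.30 (adjusted p = 0.496).

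Among the adhesion genes of that list, Lrfn2, a PSD-95-binding adhesion molecule, rose by 0.49 on the log2 scale in Tau against WT mice (adjusted p = 0.17). Lrtm1 was at 4.34 and 5.19 CPM in WT, 1.93 and 2.46 CPM in Tau and 3.67 and 3.84 CPM in UNC0642-treated Tau mice, with -1.13 (adjusted p = 0.187) and 0.79 (adjusted p = 0.461). Cbln1, a secreted linker between neurexins and delta receptors, was at 9.11 and 3.05 CPM in WT, 1.72 and 1.60 CPM in Tau and 1.66 and 2.38 CPM after UNC0642, with a log2 fold change of -1.86 between Tau and WT mice (adjusted p = 0.209) and its highest value in WT replicate 1. Cbln2, of the same family, was at 72.5 and 72.2 CPM in WT, 89.0 and 67.1 CPM in Tau and 112 and 114 CPM in UNC0642-treated Tau mice, with a log2 fold change of 0.53 after UNC0642 (adjusted p = 0.327). Flrt1 and Clstn2 changed by -0.41 and -0.30 in that comparison (adjusted p = 0.395 for each). Of these named genes, Homer1 alone stayed under 0.05 after adjustment in the edgeR test of UNC0642-treated against untreated Tau mice.

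Most members called lower were GC-rich, a feature the choice of genes did not use. Members without a call in any comparison shared it. Among them were Dlgap3 at 63.9%, the highest of the members, Lrrc4b at 63.1%, Agap2 at 63.0%, Shank3 at 62.4%, Cnih2 at 62.3% and Homer3 at 60.2%. The GC content of the longest transcript was 58.8% to 62.4% for Grip2, Iqsec2, Nlgn2, Shank1 and Nrxn2, and 49.3% for Nlgn3, where the median of the members was 51.3% with a range of 34.7% to 63.9%, and it was 38.4% for Lrrtm2. Over the 48 members, Pearson's r between GC content and log2 fold change was -0.46 in Tau against WT mice, -0.28 after UNC0642 and -0.51 between UNC0642-treated Tau and WT mice. Over genes with a mean of at least 30 CPM it was -0.09, -0.17 and -0.23, and over all genes tested 0.10, -0.18 and -0.10, so that the sign in the first comparison differed between these sets. These correlations are across genes, which share the same 6 libraries and are not replicates, and they are given as a description. Of the 9 members with a GC content of at least 60%, the median log2 fold change was -0.24 between UNC0642-treated Tau and WT mice, beside -0.10 for the 215 genes with a mean of at least 30 CPM in that class.

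**Figure D4:**
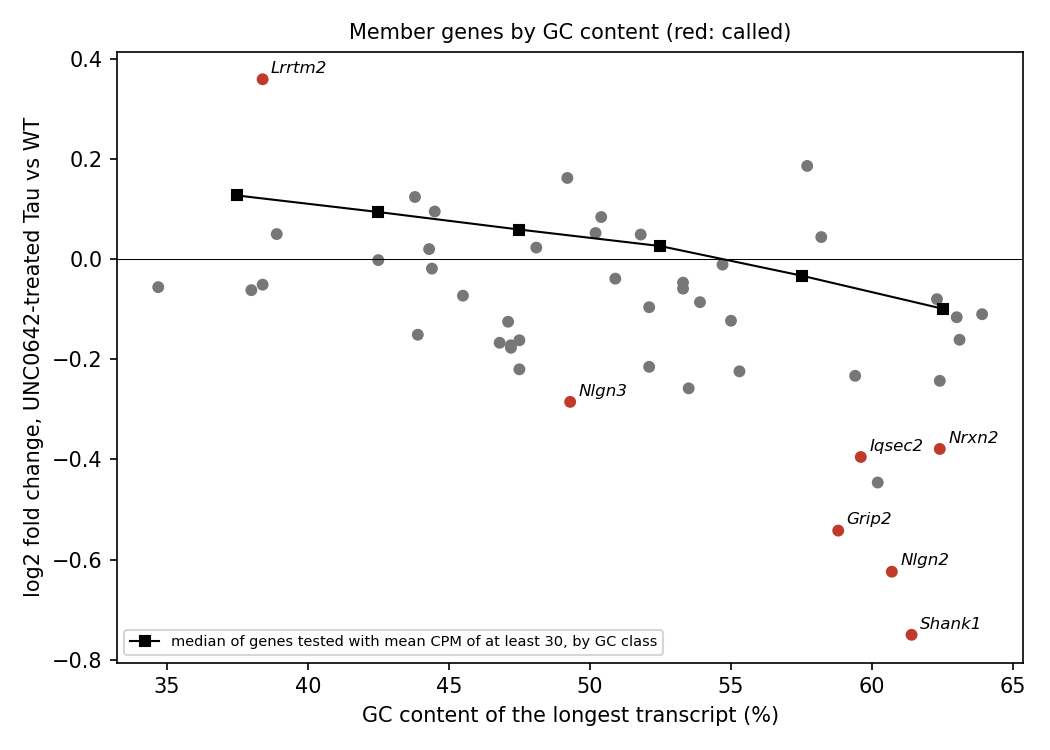
GC content of the longest transcript (x axis, percent) against the log2 fold change in UNC0642-treated Tau relative to WT mice (y axis) for the 48 members, with the 7 called members in red. Black squares are medians of all genes with a mean of at least 30 CPM in classes of GC content, drawn at the middle of 5-point classes with the lowest and highest classes open-ended. Shank1, at 61.4% GC, is the lowest point at -0.75, and Lrrtm2, at 38.4% GC, the highest at 0.36.

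When offsets for GC content were put in the model, an alternative added with the data known, Shank1 was at -0.43, -0.21 and -0.64 and Lrrtm2 at 0.46, -0.20 and 0.27 in the 3 comparisons. Their calls against WT held. The number of members called after UNC0642 was 1, Nlgn3, beside 7.16% of all genes in that fit. The part of GC content in these differences beyond this was not tested.

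Markers of cell types were followed in the same libraries. Summed pan-neuronal markers were at 4900 and 5120 CPM in WT and 5440 and 5440 CPM in Tau mice, with 2 of 6 markers called higher. In UNC0642-treated Tau mice the sums were 5970 and 6060 CPM. Syt1 was at 1260 and 1130 CPM in Tau and 1580 and 1940 CPM in UNC0642-treated Tau mice, a log2 fold change of 0.55. Rbfox3, Snap25, Nefl, Nefm and Tubb3 changed by -0.21 to 0.02 in that comparison. Sums of excitatory neuron markers ran from 1270 to 1510 CPM and those of inhibitory neuron markers from 613 to 785 CPM, with 0 and 1 of 6 called in Tau against WT mice. The inhibitory sum was 717 and 733 CPM in Tau and 662 and 652 CPM in UNC0642-treated Tau mice, where 1 of 6 markers was called lower. All 8 striatal markers and 3 of 8 oligodendrocyte markers were called higher in Tau mice, and Tau replicate 2 was the high library. Between UNC0642-treated and untreated Tau mice, 7 of 8 striatal, 2 of 8 oligodendrocyte, 1 of 6 excitatory and 1 of 6 microglial markers were called lower, and 1 of 6 pan-neuronal and 1 of 6 endothelial markers were called higher. Without Tau replicate 2, log2 fold changes in Tau against WT mice were -0.30 for Shank1, 0.43 for Lrrtm2 and 0.50 for Synpo. The median of the members after UNC0642 was then -0.165. Of the endothelial markers, 3 of 6 were called lower in Tau mice, with sums of 170 and 178 CPM in WT and 123 and 134 CPM in Tau mice. Astrocyte markers had 1 of 6, microglial markers 2 of 6 and meningeal fibroblast markers 1 of 5 called in that comparison. Their part in the members' values was not tested.

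**Figure D5:**
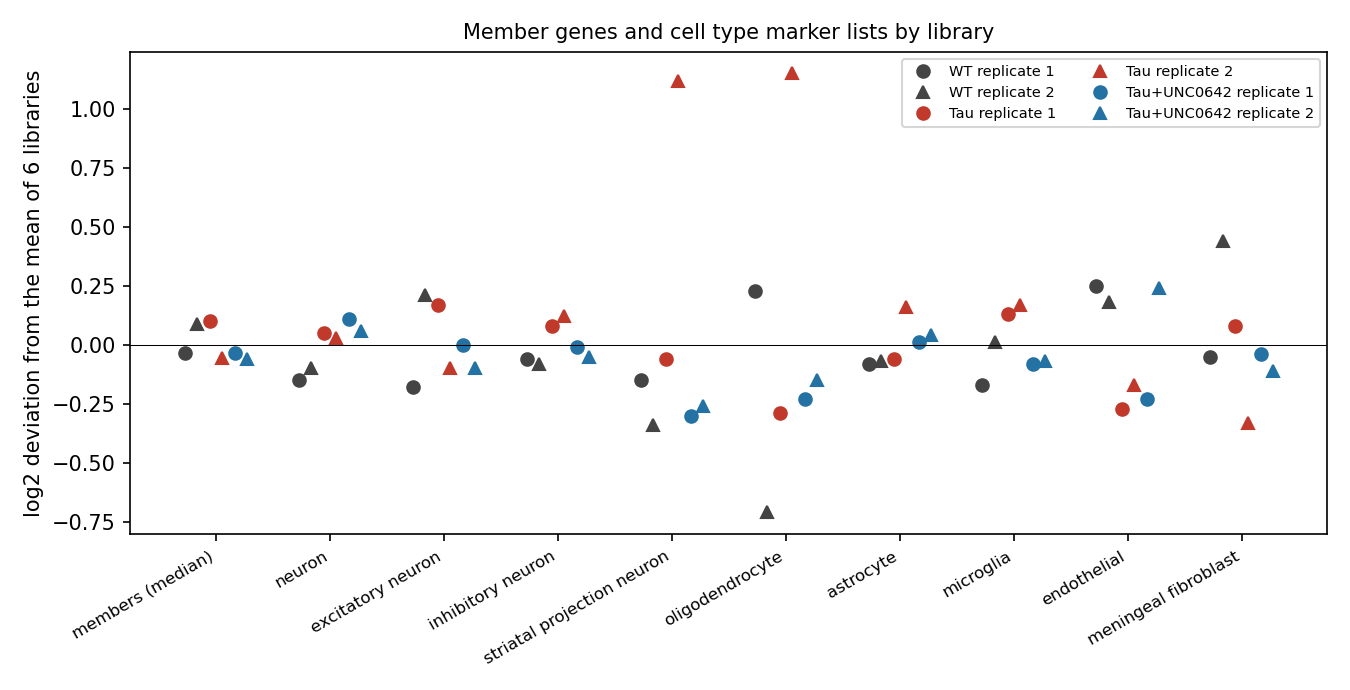
Deviation of each library from the mean of the 6 libraries on a log2 scale, as the median over the 48 members and as means over lists of cell type markers. Circles are replicate 1 and triangles replicate 2. The members stay between -0.06 and 0.10, whereas Tau replicate 2 is at 1.15 for oligodendrocyte and at 1.12 for striatal projection neuron markers.

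Exonic bases were shared with another gene in 17 of the 48 members, over more than 10% of their length in 4, Nlgn3 among them, and over 0.284% to 9.16% in the other 13. The share was 3.22% for Shank1, 6.44% for Nrxn2 and 1.58% for Lrrtm2, each with genes on the opposite strand. Exons of Homer3 and Lrrtm4 overlap genes on the opposite strand over 25.4% and 25.1% of their length, and exons of Pick1 overlap Gm49486 on the same strand over 18.6%. Libraries were made with a kit that keeps the strand, but the strand setting of the counting was not given in the sources used here. The partner of Homer3, Ddx49, had 241 to 410 counts per library, so the counts of Homer3 are uncertain. Homer3, Lrrtm4 and Pick1 were chosen for mention after their values were seen.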

How the data were processed

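RNA of bulk PFC tissue was measured in 6 libraries by strand-specific, ribosomal RNA-depleted RNA sequencing. The authors trimmed reads with Cutadapt, used TopHat2 to align them, by their account to mouse RefSeq mRNAs, and counted reads per gene with featureCounts. They deposited these as raw counts, without normalization, and the submitters' processing notes name the build mm10 (GRCm38). Versions, and the strand and overlap settings of the counting, are not given in the sources used here. In 2 libraries 26 gene names had become dates and were restored by position.

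Coordinates, exon lengths and GC content came from GENCODE M21 by symbol, matched for 53739 genes, and 99.3% of genes tested had a GC value. Counts were analysed with edgeR 4.0.16 in R 4.3.3. Genes kept by filterByExpr (minimum count 10, minimum total 15) were scaled by TMM (factors 0.966 to 1.04). One quasi-likelihood fit covered the 6 libraries with 3 group means, leaving 3 residual degrees of freedom. Tests were two-sided, with Benjamini-Hochberg adjustment over 20409 genes. Called genes had a p-value below 0.05 and differed by 1.2-fold or more, as in the study. Standard errors and 95% intervals came from the model. CPM are scaled by TMM. The study's methods name biological duplicates. P-values rest on the spread between the 2 libraries of each group, pooled over the 3 groups and moderated across genes.

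Members and lists were chosen with earlier results of these data known. Values are given for members called in any comparison, for the 5 with the smallest p in each direction, for the highest per length of each role and for X-linked members, and for the 5 called genes of the pathway list with the smallest p in Tau against WT and in UNC0642-treated against untreated Tau mice. Other genes were named after their values were seen. Alternatives used DESeq2 1.42.0, limma 3.58.1, other filters, scalings and thresholds, the compared groups alone, a replicate block, a term for sex-linked expression, and fits without each library. Offsets for GC content and a fit without WT replicate 1 and Tau replicate 2 were added after the data were seen. The procedure was tested on simulated counts. Replicate numbers come from the labels and mark different mice. Tables and figures were made with Python 3.11.15, pandas 2.3.3, numpy 2.4.6, scipy 1.17.1 and matplotlib 3.10.9.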

Additional observations from a re-analysis of the deposited data

How the results depend on the processing

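Over 17 alternative fits, the 48 members gave 2448 log2 fold changes, of which 2355 stayed on their side of the calling rule, 36 lost a call, 56 gained a call and 1, Slitrk4 after UNC0642, was called in the other direction, at 0.37 with a term for sex-linked expression. The sign differed from the reported one in 204, of which 169 were of values under 0.1 in size. No member's reported call changed sign. With each library left out, the number of members called ran from 2 to 9 in Tau against WT mice (9 without Tau replicate 1), from 0 to 9 after UNC0642 (0 without UNC0642 replicate 2, 1 without Tau replicate 1, which was higher, and 9 without Tau replicate 2) and from 4 to 11 between UNC0642-treated Tau and WT mice. The members' medians lay between -0.0859 and 0.0611 in the first comparison, -0.165 and -0.0189 in the next and -0.178 and 0.00699 in the last, against a within-group SD of 0.083 between libraries. Such fits assume that a lone library varies like the other groups, and the share of all genes they call was not computed. With both WT replicate 1 and Tau replicate 2 left out, which leaves 1 residual degree of freedom, 9 members were called after UNC0642 and 12 relative to WT, with a median of -0.179 in the last. Without a filter 5 members were called in Tau against WT mice, with no share over all genes computed. GC offsets left 1 after UNC0642, beside 7.16% of all genes in that fit. The term for sex-linked expression moved the medians to 0.0428 after UNC0642 and to 0.0086 relative to WT. At a fold change of at least 1.5 the 3 comparisons called 0, 0 and 2 members, and at an adjusted p-value under 0.05 they called 0, 0 and 1. The cause of these changes was not tested, except that stricter thresholds call fewer genes by construction. The replicate numbers mark different mice, and differences between replicates 1 and 2 correlated by -0.0344, -0.0212 and -0.00335 between groups. With the replicate block, 2, 2 and 7 members were called, and 8.78%, 6.88% and 8.6% of all genes. With 2 libraries per group, 95% intervals within a 1.2-fold change were reached by 13, 13 and 8 members.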

Other observations

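The library labelled WT replicate 1 stood apart in a few genes of the wider synaptic list, which, apart from Cbln1, were chosen after their values were seen. Shisa8, an auxiliary subunit of AMPA receptors, was at 9.82 CPM there and at 0.414 to 0.976 CPM in the other 5 libraries. Cbln1 was at 9.11 CPM against 1.60 to 3.05 CPM, Mdga1, which binds neuroligins, at 18.0 CPM against 4.92 to 9.0 CPM, and Cacng5, another AMPA receptor auxiliary subunit, at 23.9 CPM against 5.57 to 9.12 CPM. Among the members, Grip2 at 27.9 CPM against 13.4 to 17.8 CPM and Homer3 at 4.18 CPM against 2.25 to 2.68 CPM were likewise highest there. Shisa8, Cbln1, Mdga1 and Cacng5 were all called lower in Tau against WT mice. Values without this library were not computed for these 4 genes.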
